A study of Mus musculus with 35 samples.

Results

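The genes described here are 10 of the 22609 gene symbols counted in mouse hind paw skin, chosen by name: the AP-1 subunit genes Fos, Fosb, Jun, Junb and Jund, the transcription factor genes Egr1, Atf3 and Nr4a1, the growth-response gene Ier2 and the phosphatase gene Dusp1. All 10 were found in all 35 libraries, and all 10 passed the filter on low counts in each fit. Messenger RNA was sequenced from 3 cell populations sorted from paw skin that had been turned into a single-cell suspension. CD45+ immune cells came from wild-type mice, fibroblasts from mice labelled Col1a2-cre-ER/tdTom and keratinocytes from mice labelled K5-cre-ER/tdTom, in which a Cre recombinase driven by a fibroblast or a basal keratinocyte promoter turns on a red fluorescent protein. Each population was taken from females and males given vehicle and from males given paclitaxel (PTX), a taxane that stabilises microtubules.

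All groups were labelled strain C57, aged 8 to 16 weeks. PTX was given into the peritoneum at 2 mg/kg in 2 injections, 1 day apart, and the paws were sampled 6 days later. Every group had 4 libraries except the keratinocytes of vehicle males, which had 3. Whether libraries came from separate mice is not stated, and the p-values below rest on differences among libraries that may be technical. PTX females were not analysed here, so the effect of PTX was measured in males, once against vehicle males and once against vehicle females. In the second of these, sex and treatment cannot be told apart. Both comparisons use the same PTX libraries, and their results are not independent.

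AP-1 is a dimer of a Jun protein with a Fos, another Jun or an ATF protein, and binds short DNA sites through basic leucine zippers. Its Fos and Jun genes, together with Egr1, Nr4a1 and Ier2, are immediate early genes: growth factors, cytokines and stress switch them on within minutes through kinases that act on factors already bound at their promoters. Dusp1 encodes a phosphatase that switches those kinases off again. The same genes are known to rise while tissue is taken apart into single cells, and all 35 libraries came from such suspensions, so expression in the paw and expression that began during dissociation cannot be told apart here.

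The promoters of 8 of the 10 genes, all but Egr1 and Ier2, were found in the RefSeq promoter set used (build GRCm38.p6). The 150 bases before the annotated start are shown, 5′ to 3′ on the strand of the gene, for the genes whose levels differed between PTX and vehicle in at least 1 population, and for Dusp1. Capitals mark matches, on either strand, to TGACG, the core of the cAMP response element, and to the full element TGACGTCA, through which kinase signals reach immediate early genes by way of CREB and ATF proteins. The windows lie at chr12:85473740-85473889 on the plus strand for Fos, chr4:95052223-95052372 on the minus strand for Jun, chr8:84978749-84978898 on the minus strand for Junb, chr15:101266696-101266845 on the plus strand for Nr4a1 and chr17:26508473-26508622 on the minus strand for Dusp1.
Fos: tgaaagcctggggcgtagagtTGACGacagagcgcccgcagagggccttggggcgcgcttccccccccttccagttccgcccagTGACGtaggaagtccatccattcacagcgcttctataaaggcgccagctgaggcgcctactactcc
Jun: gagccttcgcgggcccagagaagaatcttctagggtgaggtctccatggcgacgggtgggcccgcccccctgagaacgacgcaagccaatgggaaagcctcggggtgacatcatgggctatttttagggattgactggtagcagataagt
Junb: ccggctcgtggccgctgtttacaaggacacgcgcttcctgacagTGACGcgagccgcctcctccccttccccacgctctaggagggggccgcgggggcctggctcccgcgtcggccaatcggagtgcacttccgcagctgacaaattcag
Nr4a1: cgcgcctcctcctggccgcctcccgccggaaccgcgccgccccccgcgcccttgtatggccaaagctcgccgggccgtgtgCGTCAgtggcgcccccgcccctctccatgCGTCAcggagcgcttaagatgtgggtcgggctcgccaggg
Dusp1: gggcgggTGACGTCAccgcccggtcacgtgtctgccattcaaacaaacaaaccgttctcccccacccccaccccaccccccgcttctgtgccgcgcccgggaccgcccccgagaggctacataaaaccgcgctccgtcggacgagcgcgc

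Within 250 bases before the start, TGACG or its reverse complement was present in 6 of the 8 promoters: those of Fos, Fosb, Junb, Atf3, Nr4a1 and Dusp1. In all 32851 RefSeq promoter windows of that length the share was 17.8%. Nr4a1 held 4 matches and Dusp1 held 3. The full element TGACGTCA was found in Dusp1 only, against 1.55% of all windows; each TGACGTCA also holds TGACG on both strands. The AP-1 site TGANTCA and the CArG box, which binds serum response factor, were found in none of the 8 windows, against 6.75% and 1.47% of all windows. TATAAA was found in Fos only, against 12.4% of all windows. These matches describe the letters in the windows and show no binding. Sites further than 250 bases before the start, or spelled otherwise than these patterns, were not looked for.

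In vehicle mice, fibroblast libraries held the highest levels of 9 of the 10 genes, immune libraries were next, and keratinocyte libraries held the lowest levels of all 10. The 10 genes together took 2.99% ± 0.22 (SD, n = 4) of all counts in fibroblasts of vehicle females and 3.46% ± 0.38 (n = 4) in those of vehicle males. Their share was 1.71% ± 0.36 and 1.78% ± 0.23 (n = 4 each) in immune libraries of females and males. In keratinocyte libraries it was 0.317% ± 0.125 (n = 4) and 0.231% ± 0.112 (n = 3). Libraries held 13359088 to 20809036 counts in genes in fibroblasts, 13847475 to 18979776 in immune cells and 6518070 to 12055718 in keratinocytes, except keratinocyte vehicle female 2 with 988712. Levels below are CPM, the usual expression unit that relates the counts of a gene to all counts of its library, scaled over all libraries where populations are compared and within the population where treatments are compared.

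The sorts carried their own markers. Summed CPM over 8 fibroblast markers was 60984 to 96273 in vehicle fibroblasts, over 8 immune markers 4766 to 8864 in vehicle immune libraries and over 9 keratinocyte markers 16269 to 24330 in vehicle keratinocytes. Some libraries also held RNA of other cell types. Fibroblast markers summed to 4372 to 9797 CPM in immune libraries of vehicle males, against 84.8 to 387 in those of vehicle females and 238 to 1449 in those of PTX males. In keratinocyte libraries they summed to 11699.6 to 15014 CPM with PTX, against 109 to 515 in vehicle males and 213 to 1205 in vehicle females. No fibroblast or immune marker was at 0 throughout any keratinocyte group.

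**Figure D1:**
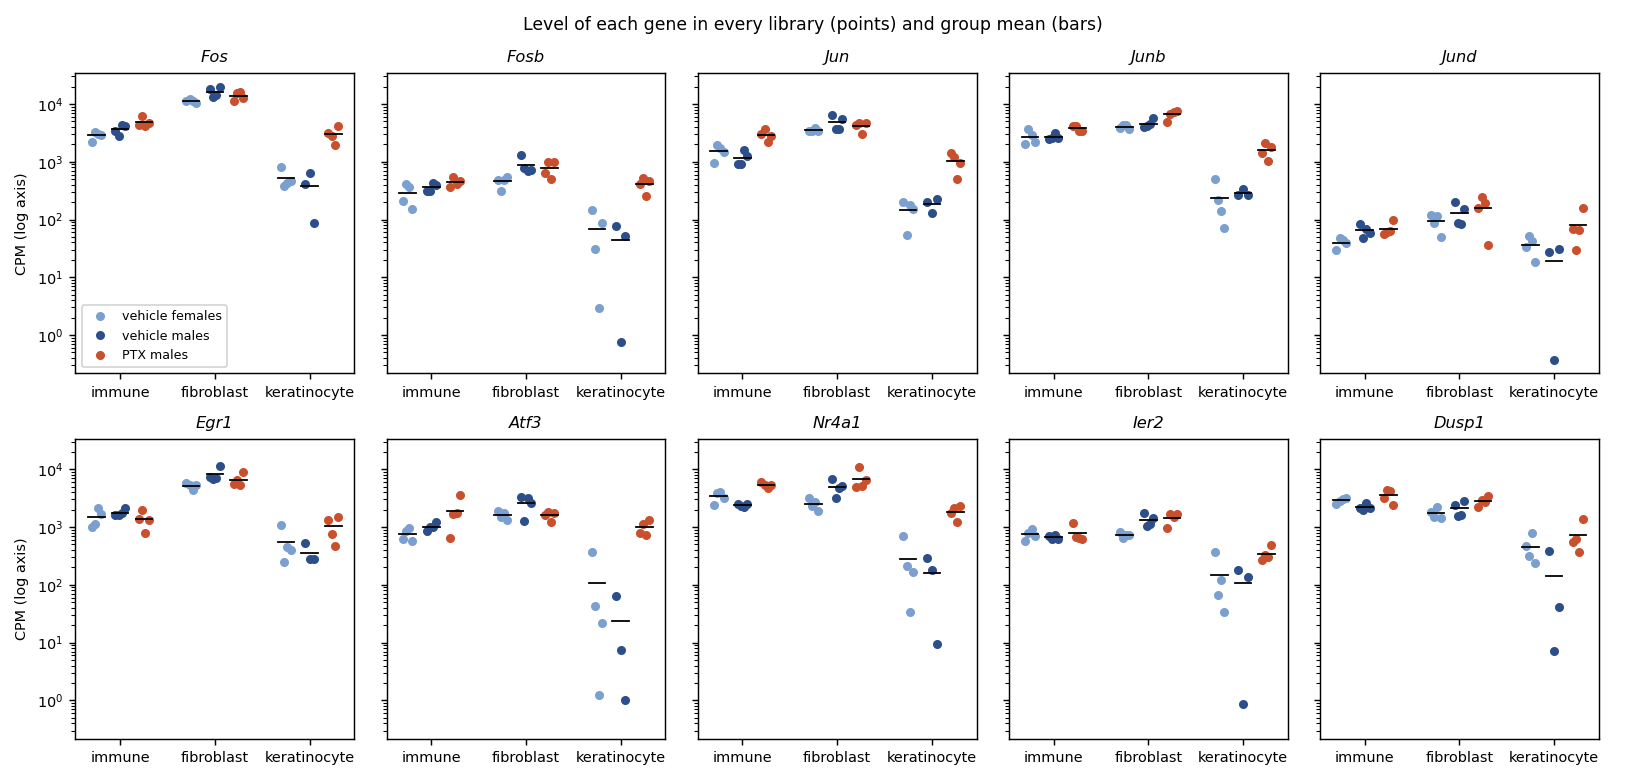
CPM of each gene (log axis, scaled over all libraries) in every library, by population and group; points are libraries and horizontal bars are group means. Fibroblast points are highest for most genes, the 2 vehicle groups of keratinocytes are lowest and most scattered, and the PTX keratinocyte means lie above the vehicle means, with overlapping points for Jund, Egr1, Ier2 and Dusp1.

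Fos, whose protein pairs with Jun proteins, had the highest level per kilobase of the 10 in fibroblasts. It stood at 11365, 12055, 11349 and 10558 CPM in vehicle females and at 18516, 13178, 14144 and 19781 CPM in vehicle males. Immune libraries held 2221 to 3289 CPM in females and 2813 to 4250 CPM in males, and keratinocyte libraries held 378 to 810 CPM and 86.5 to 643 CPM. No 2 of these populations overlapped. Over both sexes the mean was 13868 CPM ± 3463 (SD, n = 8) in fibroblasts, 3256 ± 684 (n = 8) in immune cells and 461 ± 226 (n = 7) in keratinocytes. The log2 fold change between fibroblasts and keratinocytes was 4.94 ± 0.31 (SE; edgeR, adjusted p = 4.21e-16), and that between immune cells and fibroblasts was -2.08 ± 0.25 (adjusted p = 2.28e-08). Per kilobase of exon, Fos ranked 3 of 13315 genes in vehicle fibroblasts, 28 of 14238 in immune cells and 213 of 12761 in keratinocytes. The other members ranked from 11 (Junb) to 897 (Jund) in fibroblasts and from 366 (Junb) to 3632 (Fosb) in keratinocytes.

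All 10 genes were called higher in fibroblasts than in keratinocytes (edgeR's quasi-likelihood test, Benjamini-Hochberg adjusted p under 0.05), where 18.5% of 14459 genes were called higher. Their log2 fold changes ran from 2.06 for Jund to 5.32 for Atf3, with a median of 3.96 beside 0.40 over all genes. For 9 of the 10 every fibroblast library lay above every keratinocyte library, as for 6.63% of all genes; Jund was the exception. Immune cells were called higher than keratinocytes for 9 of 10, beside 21.5% of all genes, with Jund the exception at 0.94 ± 0.66 (adjusted p = 0.317). Between immune cells and fibroblasts, Fos, Jun and Egr1 were called lower in immune cells, 3 of 10 beside 7.22% of all genes. With limma voom, Nr4a1 lost its call between fibroblasts and keratinocytes (adjusted p = 0.0694), and Fos (0.159), Egr1 (0.351) and Nr4a1 (0.0727) lost theirs between immune cells and keratinocytes. With a term for replicate number in the edgeR fit, Fosb (adjusted p = 0.0836) and Jund lost theirs between fibroblasts and keratinocytes. Between immune cells and keratinocytes, Fosb (0.322) and Ier2 (0.0778) lost theirs with that term. Without scaling beyond library size, Jund lost its call between fibroblasts and keratinocytes.

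By edgeR the order of the populations was fibroblast, immune, keratinocyte for Fos, Jun and Egr1, each step called; by limma voom, of these 3, each step was called only for Jun. Jun, the partner of Fos in the best-known AP-1 dimer, was at 4151 ± 1133 CPM (n = 8) in fibroblasts, 1349 ± 403 in immune cells and 165 ± 58.4 (n = 7) in keratinocytes. Egr1, a zinc finger factor, was at 6726 ± 2238, 1637 ± 400 and 468 ± 292 CPM. For Fosb, Junb, Atf3, Nr4a1 and Ier2 the means lay in the same order, but edgeR did not call fibroblasts and immune cells different, whereas limma voom did for each but Nr4a1 (log2 fold changes of -1.23 to -0.33, where Nr4a1 came to 0.01 without scaling beyond library size). Over all 14459 genes, edgeR called 2807 between these populations and limma voom 4974. By edgeR, Junb was the nearest to the threshold, at -0.68 ± 0.25 (adjusted p = 0.0524). Dusp1 alone had its highest mean in immune cells, 2558 ± 430 CPM against 1924 ± 508 in fibroblasts, a difference that edgeR did not call (0.40 ± 0.39, adjusted p = 0.628) and limma voom called higher in immune cells (0.54, adjusted p = 0.000351).

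Jund, which encodes the Jun protein usually made in resting cells, was at 112 ± 48.3 CPM in fibroblasts, 52.5 ± 17.4 in immune cells and 28.9 ± 16.4 in keratinocytes. Per kilobase of exon it was the lowest of the 10 in fibroblasts (67.3 CPM) and immune cells (31.4 CPM), and Fosb was the lowest in keratinocytes (15.1 CPM, against 17.3 for Jund). In the GENCODE annotation of GRCm38 Jund overlaps another gene model, as do Junb and Prdx2, which lie on opposite strands, and Dusp1 and Ergic1. HTSeq leaves out reads that fit 2 genes, and neither annotation nor strand setting of the authors' counting is given in the sources used here, so the levels of these 3 genes are uncertain.

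Lists of related genes are read against the 18.5% of all genes called higher and 8.96% called lower in fibroblasts than in keratinocytes. Of 25 other immediate early genes, 20 were called higher in fibroblasts than in keratinocytes and 16 higher in immune cells than in keratinocytes, with none lower in either. They include Zfp36, which encodes a protein that destabilises mRNA (5.30 ± 0.34 and 3.59 ± 0.31), and Nr4a2, a receptor gene of the Nr4a1 family. Of 12 other AP-1 subunits and partners, 3 were called higher in fibroblasts than in keratinocytes, a share near that of all genes: Mafk, Maff and Jdp2. Batf, whose protein forms AP-1 dimers in lymphocytes and dendritic cells, was called higher in immune cells than in fibroblasts and than in keratinocytes. Of 13 heat shock and metallothionein genes reported to rise during enzymatic dissociation, 7 were called higher and 1 lower in fibroblasts than in keratinocytes, with a median of 1.30. Among them, Hspa1a, an inducible heat shock gene, was higher by 3.73 ± 0.33, and its counts are uncertain because it has a near-identical copy, Hspa1b.

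A longer list of 20 genes reported to rise during dissociation, which holds 9 of the members, had 20 of 20 called higher in fibroblasts and 19 of 20 in immune cells than in keratinocytes. That list also shares genes, Zfp36 among them, with the list of other immediate early genes, so their counts overlap. Of 14 phosphatases and feedback inhibitors of the kinase pathway, 6 were called higher in fibroblasts than in keratinocytes, and none lower. Among 22 kinases and transcription factors upstream, 1 was called higher and 1 lower, both smaller shares than those of all genes. Of 13 target genes with known AP-1 sites, 9 were called higher and 3 lower in fibroblasts than in keratinocytes. How the suspensions were made is not given in the sources used here, and the part of handling in these differences was not tested.

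**Figure D2:**
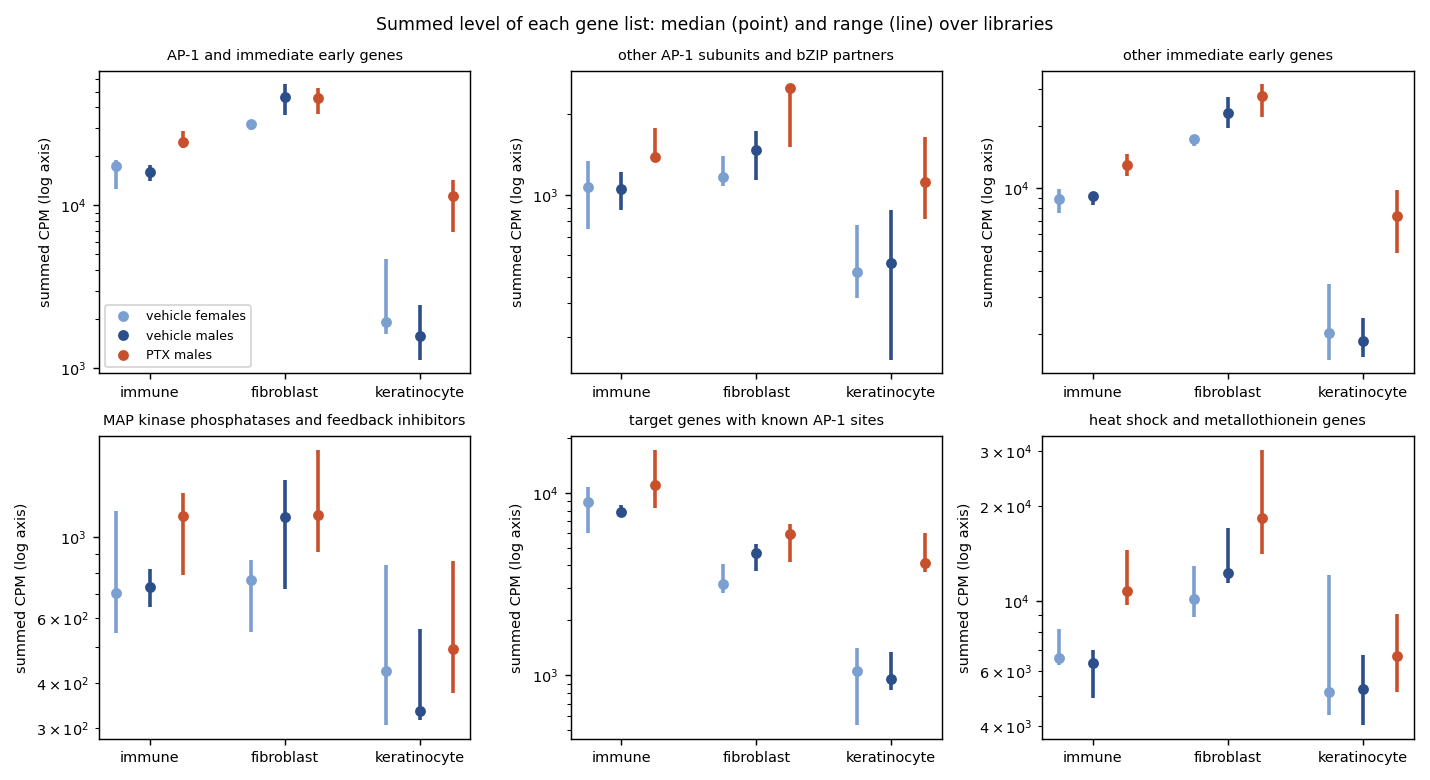
Summed CPM (log axis, scaled over all libraries) of the 10 genes and of 5 other gene lists in each group; points are medians over libraries and lines run from the lowest to the highest library. The 10 genes summed to 28940.1 to 55379 CPM in vehicle fibroblasts and to 1130 to 4691 CPM in vehicle keratinocytes.

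The spread of the 10 genes between libraries of a group was smallest in fibroblasts of vehicle females and widest in keratinocytes of vehicle males. The coefficient of variation of the 10 genes in fibroblasts of vehicle females had a median of 12.8%, from 6.00% for Jun to 34.2% for Jund, where the median over all genes of at least 100 CPM was 27.6%. In keratinocytes of vehicle males the median was 86.4% for the 10 genes and 71.4% for all genes of at least 100 CPM. The members were not held to that limit, and some lay below it in this group. Dusp1 had the widest spread there, with 537, 10.3 and 53.1 CPM scaled within the population. Library 2 of that group held 7 counts of Ier2, 6 of Fosb and 3 of Jund among 6518070, while its Fos level, 936 CPM, was the highest of the 3. Very low values of some members thus stood beside high values of others in the same vehicle keratinocyte library.

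Females and males given vehicle did not differ by the test for any of the 10 genes in any population. edgeR called 0 of 10 in each, as did DESeq2 and limma voom, beside 0.354% of all genes in immune libraries, 0.0184% in fibroblasts and 0.00914% in keratinocytes. At an unadjusted p under 0.05 there was 1 in immune libraries, Nr4a1 (0.49, higher in females), with 5 in fibroblasts and 0 in keratinocytes. Over all genes, 499 of 12131, 298 of 10857 and 877 of 10939 had such a p. In fibroblasts all 10 fold changes were negative, with a median of -0.48 beside -0.11 over all genes; without scaling beyond library size those of Junb and Dusp1 were positive. Fos, Fosb, Egr1 and Ier2 were lower in every female than in every male fibroblast library, 4 of 10 beside 1.74% of all genes.

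In immune cells, Nr4a1 and Jun rose with PTX. Nr4a1, an orphan nuclear receptor gene switched on by antigen and stress signals in immune cells, was measured at 6036, 5181, 4775 and 5258 CPM with PTX and at 2478, 2309, 2226 and 2498 CPM in vehicle males. Vehicle females held 2384, 3897, 3930 and 3101 CPM. PTX libraries thus lay above all 8 vehicle libraries. Against vehicle males the log2 fold change was 1.16 ± 0.17 (edgeR, adjusted p = 0.00494). Against vehicle females it was 0.67 ± 0.17, which was not called (adjusted p = 0.0597).

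Jun was measured at 2962, 3660, 2187 and 2731 CPM with PTX, at 895, 930, 1597 and 1279 CPM in vehicle males and at 913, 1919, 1728 and 1456 CPM in vehicle females. Its PTX libraries also lay above all 8 vehicle libraries. The fold change was 1.30 ± 0.26 against vehicle males (adjusted p = 0.0153) and 0.94 ± 0.26, not called, against vehicle females (adjusted p = 0.0885). The call for Jun was lost without immune vehicle male 2 (1.14, adjusted p = 0.0659), without scaling beyond library size and with limma voom.

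These were 2 of 10 members called higher against vehicle males, where 0.956% of 12131 genes were called higher and 5.51% in either direction. In immune libraries, 5956 to 8700 genes had more than 10 counts with PTX, and 10974 to 12813 with vehicle. The part of this difference in the changes of Jun and Nr4a1 was not tested. Members whose PTX libraries all lay above the vehicle males were Jun, Junb and Nr4a1, 3 of 10 beside 3.11% of all genes. Among the subunit genes that were not called, Junb was at 4202, 4149, 3404 and 3327 CPM with PTX and 2506 to 3118 CPM in vehicle males (0.48 ± 0.19, adjusted p = 0.154). Fos was at 4203, 6157, 4148 and 4579 CPM with PTX and 2816 to 4244 CPM in vehicle males, which overlapped (0.38 ± 0.19, adjusted p = 0.297). The log2 fold changes of Fosb and Jund were 0.28 ± 0.30 and 0.09 ± 0.50.

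Dusp1, the phosphatase gene, was at 3119, 4379, 4159 and 2430.4 CPM with PTX and 1973 to 2605 CPM in vehicle males (0.66 ± 0.19, adjusted p = 0.0567). It was called with size factors of the RLE kind, with DESeq2 and without immune PTX male 4 (0.73, adjusted p = 0.0478). Atf3, a stress-responsive repressor of the ATF family, ranged widely, at 637, 1646, 1731 and 3511 CPM with PTX and 844 to 1238 CPM in vehicle males (0.89 ± 0.38, adjusted p = 0.194). It was called without immune PTX male 1 (1.16, adjusted p = 0.0436), and its fold change was 0.34 without immune PTX male 4. Egr1 was the only member with a negative fold change, -0.40 ± 0.28 (adjusted p = 0.577). Ier2 was at 0.19 ± 0.24.

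Against vehicle females edgeR called 0 of the 10 in immune cells, beside 0.231% of genes called higher. At an unadjusted p under 0.05 there were 6, all higher with PTX, beside 508 of 12131 genes higher in this way. DESeq2 called 4 higher (Fos, Jun, Atf3 and Nr4a1), beside 310 of 12131 genes. PTX libraries lay above all vehicle females for Fos, Jun, Jund and Nr4a1, 4 of 10 beside 2.01% of all genes. Fos came close, at 0.76 ± 0.19 (adjusted p = 0.0637) from 2817 ± 470 to 4772 ± 943 CPM (SD, n = 4 each). Median fold changes of the 10 were 0.43 against vehicle males and 0.66 against vehicle females, beside 0.10 and 0.09 over all genes. Without scaling beyond library size the median of all genes fell to -0.25 and -0.16, and those of the 10 to 0.08 and 0.40. Fosb, Jund and Ier2 against vehicle males, and Ier2 against vehicle females, then had negative fold changes. Of the 669 genes called against vehicle males 17.3% were higher with PTX, and 5.75% without that scaling. With limma voom the balance was the opposite: 37 of 38 called genes, 97.4%, were higher with PTX, while the median of all genes was -1.22.

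Of 25 other immediate early genes, 4 were called higher and 1 lower in immune cells of PTX males than of vehicle males, beside 0.956% and 4.56% of all genes. Gadd45b, a stress gene of growth arrest, rose by 1.18 ± 0.24, Csrnp1 by 0.82 ± 0.17 and Klf6 by 1.02 ± 0.23. Ctgf, a secreted matrix protein gene typical of stromal cells, was lower, at -6.62 ± 1.06. Of 13 heat shock and metallothionein genes 5 were called higher, with a median of 0.95; Hspa1a was higher by 1.72 ± 0.21 and Hspa8, a constitutive chaperone gene, by 0.95 ± 0.21. Of the 20 genes on the longer dissociation list 6 were called higher, the members Jun and Nr4a1 included. Among the others were Tnfaip3 (1.64 ± 0.18) and Nfkbia (0.99 ± 0.17), both inhibitors of NF-κB.

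None of 12 other AP-1 subunits, 14 phosphatases and feedback inhibitors or 13 AP-1 target genes was called, by edgeR. Of 22 upstream kinases and factors, Map2k2 and Rps6ka3 were called lower. Markers of other cells moved with this comparison: 5 of 8 fibroblast, 4 of 7 endothelial and 3 of 8 tested keratinocyte markers were lower in PTX than in vehicle males, and 7 of 8 mast cell and 3 of 7 dendritic and Langerhans cell markers were higher. The part of these cells in the change of Jun and Nr4a1 was not tested. Here as in all bulk libraries, more cells of a type and more RNA per cell cannot be told apart.

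In fibroblast libraries the 10 genes together took 2.64% to 4.02% of all counts, and edgeR called none of the 10 with PTX. Against vehicle males, where 0.0184% of 10857 genes were called by edgeR, neither DESeq2 nor limma voom called any member. An unadjusted p under 0.05 was reached by 2 members and by 876 of the 10857 genes. Those 2 lay in opposite directions: Junb at 0.47 ± 0.17 (adjusted p = 0.469) and Atf3 at -0.72 ± 0.28 (adjusted p = 0.476). Fos was at 9171, 12908, 11246 and 9650.3 CPM with PTX and at 14453, 11116, 11694 and 14953 CPM in vehicle males, and the groups overlapped (-0.28 ± 0.15, adjusted p = 0.725). The median of the 10 was -0.06, beside 0.08 for all genes, and turned to 0.15, beside 0.23, with RLE scaling.

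Against vehicle females 0.0276% of genes were called in fibroblasts. Again none of the 10 was called by any of the 3 tools, with 4 at an unadjusted p under 0.05, beside 781 of 10857 genes. Nr4a1 was nearest, at 4063, 9096, 3579 and 4866 CPM with PTX and at 2745, 2005, 2376 and 1667 CPM in vehicle females (1.30 ± 0.28, adjusted p = 0.286). It ranked 7 of 10857 genes by p-value. Its PTX and vehicle female libraries did not overlap, and neither did those of Junb and Ier2, 3 of 10 beside 2.64% of all genes higher in this way. Vehicle males, at 5355, 2714, 3876 and 3896 CPM, overlapped the PTX libraries for Nr4a1. None of the other pathway lists had a member called in fibroblasts, in either comparison, by edgeR.

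**Figure D3:**
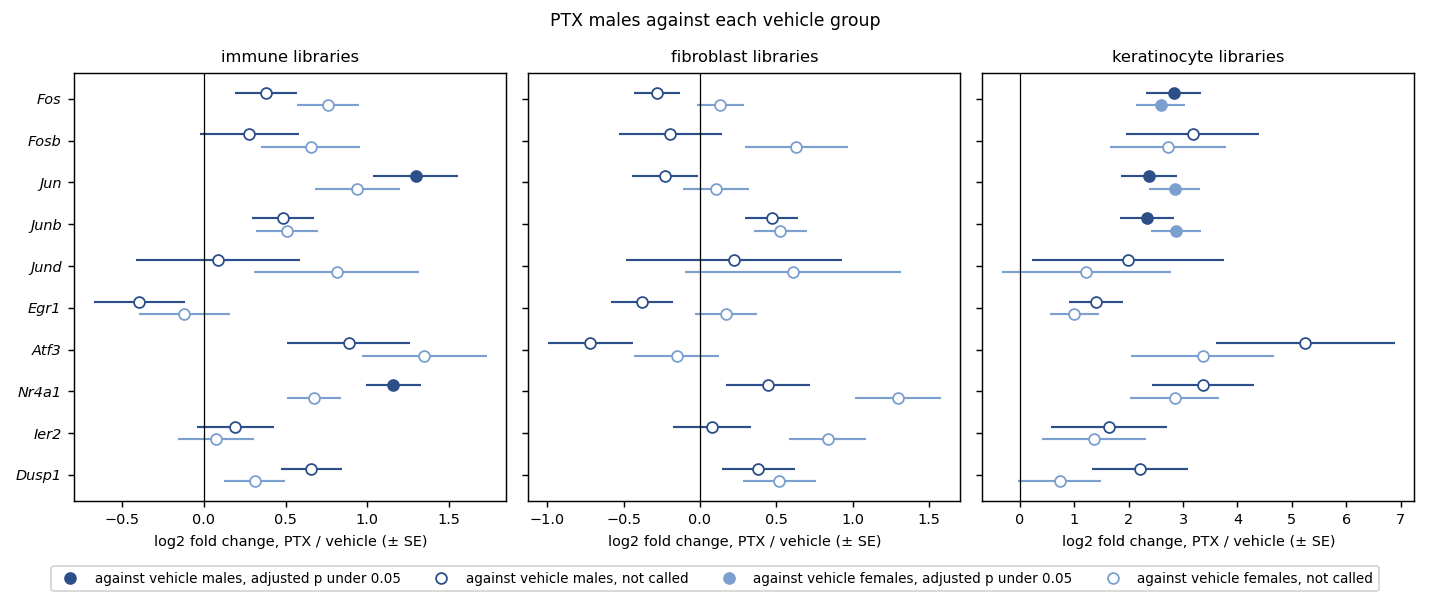
Log2 fold change (± SE) of each gene in PTX males against vehicle males and against vehicle females, by population; filled points have an adjusted p under 0.05, and the horizontal scales differ between panels. Jun and Nr4a1 are filled in immune cells, none in fibroblasts, and Fos, Jun and Junb in keratinocytes, whose fold changes reach 5.25.

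In keratinocyte libraries Fos, Jun and Junb rose with PTX against both vehicle groups. Fos was measured at 4221, 3390, 2583 and 5127 CPM with PTX, at 568.5, 936 and 112 CPM in vehicle males and at 912, 458, 571 and 608 CPM in vehicle females. Every PTX library lay above every vehicle library. The log2 fold change was 2.83 ± 0.51 against vehicle males (edgeR, adjusted p = 0.0047) and 2.59 ± 0.45 against vehicle females (adjusted p = 0.00316).

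Jun was at 1921, 1498, 673 and 1190 CPM with PTX, at 281, 189 and 293 CPM in vehicle males and at 230, 66.4, 238 and 199 CPM in vehicle females. The changes were 2.38 ± 0.52 (adjusted p = 0.0212) and 2.85 ± 0.47 (adjusted p = 0.00221). Junb, whose protein often opposes Jun and is needed for normal epidermis, was at 1943, 2538, 1394 and 2238 CPM with PTX, at 378, 483 and 341 CPM in vehicle males and at 569, 262, 187 and 92.4 CPM in vehicle females. It changed by 2.34 ± 0.50 (adjusted p = 0.0175) and 2.87 ± 0.46 (adjusted p = 0.00151). For both genes, too, no vehicle library reached the lowest PTX library.

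The 3 called were 3 of 10 beside 1.15% of 10939 genes called higher against vehicle males, and 3 of 10 beside 1.32% against vehicle females. PTX libraries lay above all vehicle males for 7 of 10, where 9.15% of genes did, and above all vehicle females for 6 of 10, where 6.6% did. All 10 fold changes were positive in both comparisons, with medians of 2.36 and 2.65 beside 0.07 and 0.04 over all genes. Against vehicle males, Fos was called in each fit without 1 library. Jun lost the call without vehicle male 1, 2 or 3 or PTX male 1 or 2 (adjusted p of 0.0664 to 0.112), and Junb without vehicle male 1 or 3 or PTX male 1, 2 or 4 (adjusted p of 0.0546 to 0.0918). limma voom called none of the 10 in that comparison. Against vehicle females all 3 stayed called in each of 8 such fits, and limma voom called 1, Atf3.

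The other 7 members were not called by edgeR against either vehicle group. Atf3 was at 1089, 1402, 991 and 1647 CPM with PTX, at 89.0, 10.7 and 1.30 CPM in vehicle males and at 417, 52.4, 1.62 and 28.2 CPM in vehicle females. It had the largest fold change of the 10, 5.25 ± 1.64 (adjusted p = 0.181), with vehicle levels that spread over more than their mean. Nr4a1 was at 2343, 2572, 1654 and 2858 CPM with PTX, at 409, 264 and 12.3 CPM in vehicle males and at 44.2 to 788 CPM in vehicle females (3.37 ± 0.95, adjusted p = 0.118). DESeq2 called both, and Fosb, against vehicle males. Egr1, whose error was close to those of the called genes, had the smallest fold change of the 10 against vehicle males (1.40 ± 0.50). Dusp1 (2.21 ± 0.88), Ier2 (1.64 ± 1.06), Fosb (3.17 ± 1.22) and Jund (1.99 ± 1.76) had larger errors.

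Some genes of the related lists were also called higher in the same libraries. Of 25 other immediate early genes, 3 were called higher against vehicle males and 2 against vehicle females. Over all genes, 1.15% and 1.32% were called higher. Zfp36 rose by 2.90 ± 0.60 and 3.23 ± 0.54, and Cyr61, a matrix protein gene, by 2.88 ± 0.59 against vehicle males. Among 11 tested AP-1 target genes 2 were called higher in each comparison, Il6, an inflammatory cytokine gene, in both. Of 13 heat shock and metallothionein genes, 0 were called against vehicle males and 1, Hspa1a, against vehicle females (3.14 ± 0.49). On the longer dissociation list 5 of 20 were called higher in each, Fos, Jun, Junb and Zfp36 included. No other AP-1 subunit, phosphatase or upstream kinase of those lists was called by edgeR.

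Markers of other cell types were higher in the same PTX keratinocyte libraries. Against vehicle males, 5 of 8 fibroblast, 5 of 7 endothelial, 2 of 8 immune and 3 of 4 tested dendritic and Langerhans cell markers were called higher, and 5 of 9 keratinocyte markers were called lower. Col1a2, a fibroblast collagen gene, was at 1972 ± 689 CPM (SD, n = 4) with PTX and at 0.974 ± 0.129 (n = 3) in vehicle males, scaled over all libraries. Ptprc, which encodes CD45, was at 156 ± 36.4 and 0.432 ± 0.115 CPM. Krt5, the gene whose promoter drives the Cre, was at 1902 ± 1045 and 5008 ± 1514 CPM. Keratinocyte markers summed to 2966 to 10588 CPM with PTX and to 17559 to 23082 CPM in vehicle males.

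Set against vehicle fibroblasts, Col1a2 in PTX keratinocyte libraries stood at 19.2% of the fibroblast mean, with a range of 11.4% to 27.7%, and the summed fibroblast markers at 17.8%. Fos stood at 21.5% (13.9% to 29.5%), Jun at 24.7%, Junb at 36.7% and Egr1 at 15.2%. Atf3 at 47.5%, Nr4a1 at 48.8%, Fosb at 62.2% and Jund at 71.5% stood higher. In vehicle male keratinocyte libraries the same measure was 0.00946% for Col1a2, 2.73% for Fos, 4.48% for Jun and 6.70% for Junb. Set against vehicle immune cells, Ptprc in PTX keratinocyte libraries stood at 29.1%, the summed immune markers at 11.4%, Fos at 91.4%, Jun at 75.8% and Junb at 58.8%. The part of RNA from fibroblasts, endothelial and immune cells in the higher levels of Fos, Jun and Junb was not tested.

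**Figure D4:**
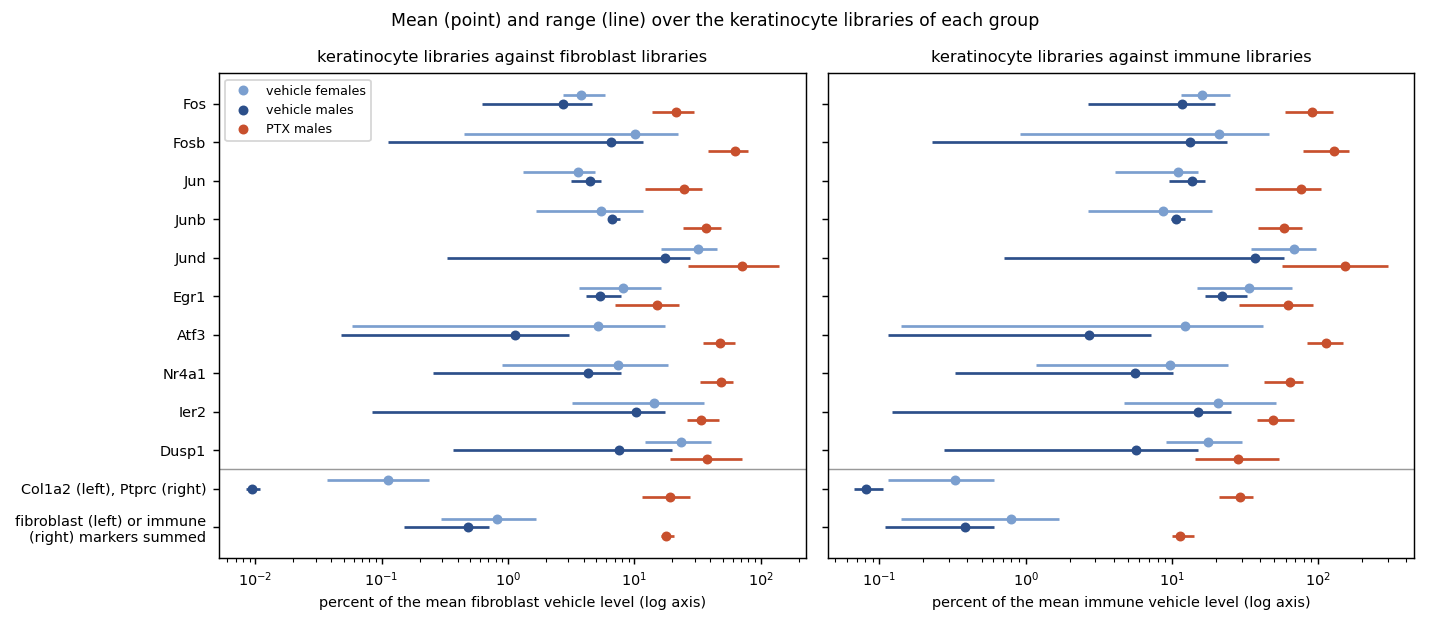
Level of each gene and of cell type markers in keratinocyte libraries, as a percentage (log axis) of the mean level in vehicle fibroblasts (left) or vehicle immune cells (right); points are group means and lines the range over libraries. In PTX libraries Fos lies at 21.5% and Col1a2 at 19.2% of the fibroblast level, and in vehicle males Fos lies at 2.73% and Col1a2 at 0.00946%.

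The change with PTX, measured against vehicle males, differed between populations for part of the members. It was smaller in fibroblasts than in keratinocytes for 7 of 10 (Fos, Fosb, Jun, Junb, Egr1, Atf3 and Nr4a1) by the interaction term of a fit over all libraries, beside 6.2% of 14459 genes. Of these calls, that of Fosb (adjusted p = 0.0471) was lost in 18 of 21 alternatives, 13 of them among the 15 fits without 1 library, and that of Egr1 (adjusted p = 0.0411) in 16 of 21, 11 of them among those 15. The call for Junb was lost in 5 of 21, among them the fits without keratinocyte vehicle male 1 or 3, and limma voom called none of the 7. It was smaller in immune cells than in keratinocytes for 4 of 10 (Fos, Junb, Egr1 and Atf3), beside 11.4% of all genes. There the call for Egr1 was lost in 7 of 21 alternatives and that for Atf3 without keratinocyte vehicle male 2, and limma voom called none of the 4. The difference for Fos was -3.20 ± 0.52 (adjusted p = 3.72e-05) and -2.57 ± 0.51 (adjusted p = 0.000513). Over all genes the medians of these differences were -0.52 and -1.02, and those of the 10 were -2.30 and -1.95. Between immune cells and fibroblasts edgeR called 0 of 10, beside 1.69% of genes. An unadjusted p under 0.05 was reached by 1 member and by 2189 of 14459 genes. DESeq2 called 0 of the 10 and limma voom called Jun and Nr4a1, beside 1719 and 213 of all genes. Jun had the lowest p of the 10 there, with a difference of 1.52 ± 0.51 (adjusted p = 0.111).

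Within groups the 10 genes tended to vary together from library to library. Each library was taken as its deviation from the group mean of log2(CPM + 1), so that group differences did not enter. Over 35 libraries 40 of 45 pairs of members had a positive Pearson r, with a median of 0.35, from -0.30 for Fos with Ier2 to 0.86 for Atf3 with Nr4a1. Atf3 and Nr4a1 had r of 0.91 over 11 keratinocyte, 0.76 over 12 fibroblast and -0.00054 over 12 immune libraries. Fos and Jun had r of 0.88 in immune, 0.34 in fibroblast and 0.077 in keratinocyte libraries. These values are descriptions over libraries that share depth and sorting, with no test. Pairs of other genes were not measured for comparison. Likeness of other genes was measured as the r of their deviations with the mean deviation of the 10. The genes most like them, of 10214 with a mean of at least 10 CPM, were Ccpg1 (r = 0.89), Samhd1 (0.83), Irf5 (0.82), Sfrs18 (0.81) and Nfkbiz (0.80). Their r in keratinocyte libraries alone was 0.85 to 0.95, in fibroblast libraries alone -0.27 (Irf5) to 0.86 (Ccpg1), and in immune libraries alone -0.21 to 0.46.

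**Figure D5:**
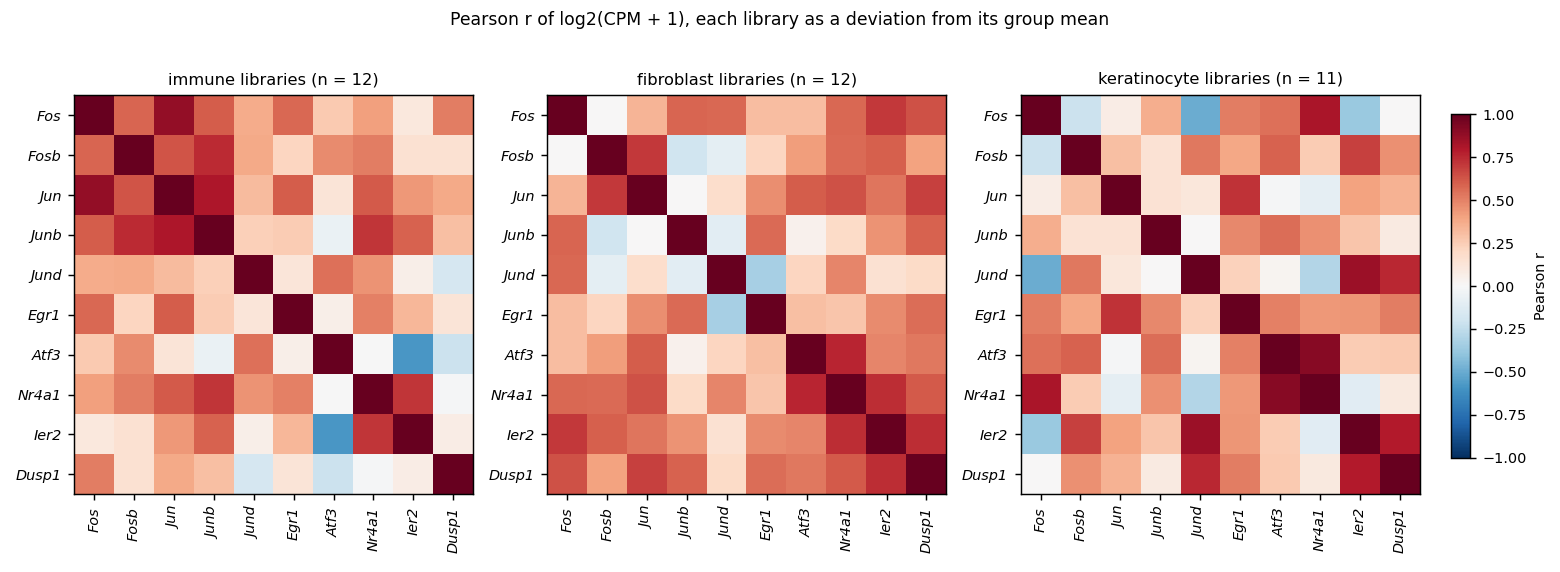
Pearson r between members within each population, of log2(CPM + 1) as the deviation from the group mean; colours run from -1 (blue) to 1 (red). Positive pairs number 39 of 45 in immune cells, 41 of 45 in fibroblasts and 38 of 45 in keratinocytes.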

How the data were processed

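Each library has a deposited table of raw read counts per gene symbol, whole numbers that were not normalized. Per the labels' protocols, libraries were made with a TruSeq stranded mRNA kit and read as 50 bases, single-end. Per the submitters' processing notes, bcl2fastq, TopHat2, HTSeq and the mm9 build were used; neither annotation nor strand setting is given in the sources used here. Of the reads in the tables, 19.3% to 52.3% were counted in genes, and only those entered library sizes and tests.

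Counts were tested with edgeR 4.0.16 in R 4.3.3: filterByExpr, TMM scaling, robust quasi-likelihood fits and Benjamini-Hochberg adjustment over all genes tested, with a threshold of 0.05. Treatment and sex were fitted within each population, and populations and differences in the PTX effect over all libraries. DESeq2 1.42.0, limma 3.58.1 (voom with quality weights), other scalings, no filter, a replicate block, other sets of libraries and leaving out each library were the alternatives. The scripts were tested on simulated data.

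The members and lists were chosen with earlier results of these data known. All 10 members are named; of each other list, at most the 3 genes called higher and the 3 called lower with the lowest p, and the 5 genes most like the members. Exon lengths came from GENCODE on GRCm38, another build than mm9, for 20284 of 22609 symbols. Nothing in the labels says that libraries of a group came from separate animals.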

Additional observations from a re-analysis of the deposited data

Results flagged for a closer look

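A library stood apart from the other 3 of its group in 5 of 80 gene and group combinations of 4 libraries; chance flags about 1 in 20. Each was the highest of its group. Jun was at 3289 CPM in fibroblast vehicle female 3, with the others at 2902 to 2949. Egr1 was at 8776 CPM in fibroblast vehicle male 4, with the others at 5717 to 5943, and at 2134 CPM in immune vehicle male 4, with the others at 1633 to 1717. Atf3 was at 417 CPM in keratinocyte vehicle female 1, with the others at 1.62 to 52.4. Ier2 was at 1180.3 CPM in immune PTX male 1, with the others at 609.5 to 655.

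The log2 change with PTX against vehicle males differed between populations, by edgeR's interaction term, for 11 combinations. Immune cells minus keratinocytes gave -2.57 for Fos, -1.96 for Junb, -1.87 for Egr1 and -4.47 for Atf3. Fibroblasts minus keratinocytes gave -3.20 for Fos, -3.41 for Fosb, -2.66 for Jun, -1.93 for Junb, -1.84 for Egr1, -6.06 for Atf3 and -3.04 for Nr4a1. Over all 14459 genes, 11.4% were called lower in the first set and 6.2% in the second, with medians of -1.02 and -0.52. In the first set the call of Egr1 was lost in 7 of 21 alternatives. In the second set the calls of Fosb and Egr1 rarely held, being lost in 18 and 16 of 21 alternatives. With limma voom none of the 11 was called. In the same PTX keratinocyte libraries fibroblast markers summed to 11699.6 to 15014 CPM, against 109 to 515 in vehicle males; their part in these differences was not tested.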

How the results depend on the processing

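Of 2640 member values under alternatives, 2504 kept their direction and side of the threshold, 84 lost a call, 52 gained one and 0 called values reversed; 67 uncalled values changed sign. The causes were not tested. Of the 10 members, the 2 called in immune cells against vehicle males became 1 without scaling and 1 with limma voom, and 1 to 3 when each library was left out. The 0 against vehicle females became 1 with RLE scaling and 4 with DESeq2 (0 to 1 leaving out libraries). In keratinocytes, the 3 against vehicle males became 6 with DESeq2, 0 with voom and 5 with both vehicle groups as controls (1 to 3), and the 3 against vehicle females became 5 with DESeq2 and 1 with voom (3 to 5). The 3 called between immune cells and fibroblasts at rest, all lower in immune cells, became 9 with voom, 8 lower and Dusp1 higher (3 to 4). Over all 14459 genes, 2807 called there became 4974 with voom. The 9 higher in immune cells than keratinocytes became 6 with voom and 7 with a replicate block. The 10 higher in fibroblasts than keratinocytes became 9 with voom, 9 without scaling and 8 with a replicate block. For the PTX effect, immune against fibroblast went from 0 to 2 with voom, immune against keratinocyte from 4 to 0 with voom and 6 without scaling (2 to 6), and fibroblast against keratinocyte from 7 to 3 with RLE and 0 with voom (4 to 7).

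Counts over all genes also moved. In immune cells against vehicle males 669 became 407 without a filter, 1870 with DESeq2, 38 with voom (37 of them higher with PTX) and 230 to 954 leaving out libraries (230 without immune vehicle male 2); against vehicle females 213 became 94, 1258, 1, 2 with only the 2 groups, and 8 to 520. In keratinocytes against vehicle males 159 became 1339 with DESeq2, 339 with voom, 586 with both vehicle groups and 84 to 121. Against vehicle females 170 became 1019 with DESeq2, 468 with voom and 93 to 121 leaving out libraries. In fibroblasts against vehicle males 2 became 403 with DESeq2 and 0 with voom. At rest, genes higher in fibroblasts made up 67.4% of those called against keratinocytes, and 55.6% without scaling. Genes called there went from 3972 to 4236 with voom, 3913 without scaling and 759 with a replicate block. Between immune cells and keratinocytes at rest, 4060 became 5339 with voom and 687 with the block. For the PTX effect, immune against keratinocyte went from 1690 to 1091 with voom and 1794 without scaling. Fibroblast against keratinocyte went from 1002 to 929 with RLE and 326 with voom.

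Deviations of same-numbered libraries had r of -0.049 to 0.115 in immune cells, -0.044 to 0.028 in fibroblasts and -0.026 to 0.019 in keratinocytes. For differently numbered libraries r was -0.145 to 0.089, -0.042 to 0.047 and -0.018 to 0.025. These values cannot show whether same-numbered libraries were handled together. With a replicate block the members called in keratinocytes were 5 against vehicle males and 5 against vehicle females, beside 119 and 131 of 10939 genes. The genes called in immune cells fell to 148 and 3. Keratinocyte vehicle female 2, with 988712 counts, limits the levels of low members there.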
